A study of Homo sapiens with 6 samples.

Results

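Broad ATAC-seq peaks were defined as peaks of 1000 bp or wider, from the start to the end given in each peak list, in each of the lists of WT NPCs, dKO NPCs and BAF53B-transduced dKO NPCs (the BAF53B list). The WT list held 350 broad peaks among 7880 peaks, which was 4.44% of the list. The dKO list held 3511 among 25439, or 13.8%, and the BAF53B list held 2363 among 16948, or 13.9%. Over the 3 lists, 6224 of 50267 peaks were broad. The members were chosen by their measured width, so these counts and the widths in a peak's own list are descriptions.

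ATAC-seq measures open chromatin by the places where the Tn5 transposase can insert sequencing adapters. The neural progenitor cells (NPCs) were derived from H1, a human embryonic stem cell line, and formed 3 groups of 2 replicates each, 6 samples in all. WT NPCs carried no edit. The dKO NPCs lacked the catalytic part of UTX, encoded by KDM6A, and of JMJD3, encoded by KDM6B, which are both demethylases of the repressive mark H3K27me3, and the dKO NPCs of the remaining group were also transduced with a lentivirus for BAF53B, which is the actin-like subunit that neurons use in their version of the chromatin remodeller BAF. All 3 groups therefore share the H1 background, and both dKO groups share the deletions. The WT and dKO samples are titled NPC2, and the study did its ATAC-seq of WT and dKO NPCs at passage 2. Titles of the BAF53B samples give no passage, and those of the other groups name no control virus. Passage and transduction thus cannot be told apart from BAF53B itself. The peak lists hold no measure of the deleted exons. The labels do not say whether replicates were separate cultures or how many dKO clones were used. Both replicates of a group were pooled by the authors into 1 peak list, so there is no value per sample, no spread between replicates and no p-value. The 95% intervals below cover counting error over peaks only, and each difference describes the pooled libraries. Against the cell type label, 2 of 14 NPC marker genes (HES1 and VIM) had a promoter peak in WT NPCs, 8 in dKO NPCs and 5 with BAF53B. Of all 20046 protein-coding genes, 5622, 11228 and 8945 had a promoter peak in the same order of lists. Among the NPC markers, VIM, encoding the intermediate filament vimentin, had a broad peak with BAF53B and none had a broad peak in the other lists. None of 5 pluripotency markers had a promoter peak in WT NPCs, and LIN28A had 1 in each of the other lists. In the order WT, dKO and BAF53B, 1, 4 and 3 of 8 neuronal markers had a promoter peak. The counts were 0, 1 and 1 of 4 neural crest markers and 0, 1 and 0 of 5 mesoderm and endoderm markers.

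An active promoter carries a stretch free of nucleosomes around its transcription start site (TSS), and this stretch is commonly longest where the DNA is a CpG island, a run rich in G, C and CG dinucleotides. Chromatin remodelling complexes such as BAF move or evict nucleosomes and can thereby set how far such a stretch extends. The width of an ATAC-seq peak also grows with the number of fragments at its summit. More of its flanks then pass the threshold of the peak caller, here MACS2. Each summit in these lists had a −log10 q of at least 5, and the threshold that set the peak edges is not given.

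To show the DNA of broad peaks, 150 bp that held no annotated exon are printed for 4 promoters and 2 regions far from any TSS, each as near to the summit as that allowed, from hg38 on the plus strand. Capitals mark CG dinucleotides. The promoters are that of RAB4B, broad in all 3 lists (chr19:40778065-40778214), CAMK2D, broad in dKO NPCs with no WT peak (chr4:113762576-113762725), FAM193A, the widest peak with BAF53B (chr4:2536364-2536513), and EMSY, broad in WT NPCs and narrower in both other lists (chr11:76444772-76444921).
RAB4B: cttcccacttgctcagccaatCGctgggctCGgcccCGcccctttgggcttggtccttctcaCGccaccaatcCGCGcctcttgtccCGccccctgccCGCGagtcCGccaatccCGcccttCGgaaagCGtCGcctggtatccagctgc
CAMK2D: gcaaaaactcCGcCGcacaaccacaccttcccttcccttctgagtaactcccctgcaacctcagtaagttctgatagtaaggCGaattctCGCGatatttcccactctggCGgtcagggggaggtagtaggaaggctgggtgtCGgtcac
FAM193A: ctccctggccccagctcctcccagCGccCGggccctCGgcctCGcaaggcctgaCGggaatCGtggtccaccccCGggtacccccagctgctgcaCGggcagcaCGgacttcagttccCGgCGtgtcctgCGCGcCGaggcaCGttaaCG
EMSY: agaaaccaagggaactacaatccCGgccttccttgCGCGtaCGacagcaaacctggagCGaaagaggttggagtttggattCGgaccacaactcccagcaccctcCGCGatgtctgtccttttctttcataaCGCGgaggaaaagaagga
These stretches held 14, 7, 16 and 10 CG dinucleotides in that order. The stretches far from a TSS came from the widest WT broad peak that was under 1000 bp in dKO NPCs, near CPO (chr2:207008334-207008483), and from a peak broad with BAF53B that had no dKO peak, near KITLG (chr12:88471968-88472117). They held 0 CG dinucleotides each.
near CPO: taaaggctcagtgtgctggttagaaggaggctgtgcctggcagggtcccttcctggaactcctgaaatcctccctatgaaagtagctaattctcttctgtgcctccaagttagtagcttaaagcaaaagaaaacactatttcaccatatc
near KITLG: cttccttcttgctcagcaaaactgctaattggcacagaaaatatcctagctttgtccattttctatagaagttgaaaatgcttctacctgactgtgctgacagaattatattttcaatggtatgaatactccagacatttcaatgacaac
The promoter stretches had a GC content of 52.7 to 72.7%, and these 2 had 45.3 and 36%.

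Broad peaks were mostly little wider than the minimum. Their median width was 1098 bp in WT NPCs (95% interval 1085 to 1119), 1172 bp in dKO NPCs (1164 to 1182) and 1169 bp with BAF53B (1161 to 1178). Just inside the limit, at 1000 bp to under 1100 bp, lay 177 WT, 1164 dKO and 763 BAF53B peaks, and just outside it, at 900 bp to under 1000 bp, lay 259, 1420 and 973. These neighbours had median summit pileups of 45, 56 and 48 fragments inside the limit and 42, 56 and 45 outside it. At least 1500 bp wide were 13 WT, 392 dKO and 220 BAF53B peaks, and at least 2000 bp wide were 0, 23 and 5. The widest peak measured 1724 bp in WT NPCs, 2438 bp in dKO NPCs and 2498 bp with BAF53B. Broad peaks covered 9.70% of the DNA in WT peaks, 27.3% of that in dKO peaks and 26.8% of that in BAF53B peaks.

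**Figure D1:**
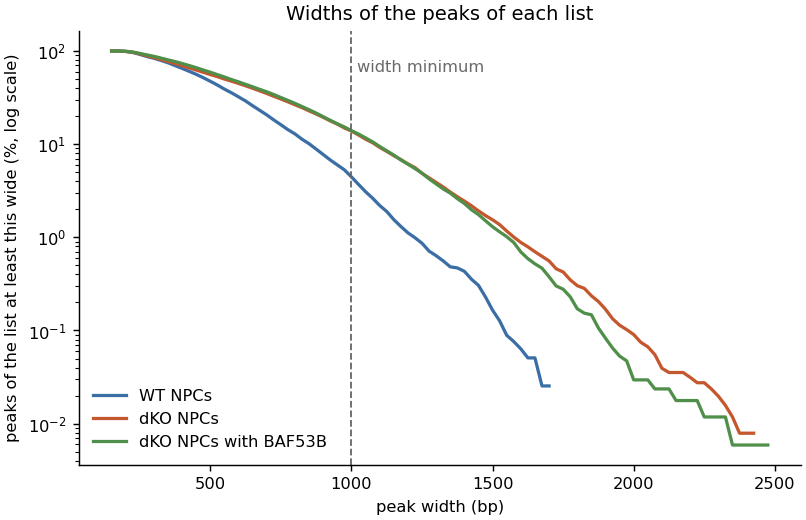
The share of the peaks of each list (y axis, percent, log scale) that were at least as wide as the value on the x axis (bp), for the lists of the 3 groups. At the width minimum of 1000 bp, marked by the dashed line, the curves stood at 4.44%, 13.8% and 13.9%, and the WT curve ended at the narrowest maximum.

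The 5 widest WT peaks all lay at promoters. At PLPP1, a phospholipid phosphatase gene, the peak (chr5:55534062-55535785) measured 1724 bp in WT NPCs, 1366 bp in dKO NPCs and 1696 bp with BAF53B. PCF11, a factor for cleavage of the transcript end and for termination, had 1706 bp (chr11:83156348-83158053), 1446 bp and 1014 bp. At NADK2, the mitochondrial NAD kinase, the widths were 1658 bp (chr5:36240995-36242652), 1110 bp and 754 bp. IFNAR1, a chain of the type I interferon receptor, measured 1656 bp (chr21:33324177-33325832), 1032 bp and 1484 bp, and EFCAB2 measured 1609 bp, 1572 bp and 1052 bp. At these 5 promoters the WT peak was the widest of the 3. They were chosen for their WT width, which makes their partners narrower in part by construction. Each dKO peak, although narrower, had more fragments at its summit, for example 129 against 66 at PCF11 and 52 against 30 at PLPP1. Taller dKO summits were general, with medians of 90 against 46 fragments over WT broad peaks with a dKO partner.

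The widest dKO peaks were mostly missing from the WT list. NAA50, an N-terminal acetyltransferase, had 970 bp in WT NPCs, 2438 bp in dKO NPCs (chr3:113745192-113747629) and 1530 bp with BAF53B. At CAMK2D, the delta chain of calcium/calmodulin-dependent protein kinase II, no WT peak was called, and the widths were 2434 bp in dKO NPCs (chr4:113760497-113762930) and 1336 bp with BAF53B. VGLL4, a cofactor that binds TEAD factors, had no WT peak, 2361 bp in dKO NPCs (chr3:11718461-11720821) and 356 bp with BAF53B. Its summit lay 51756 bp inside the gene, at 0 bp from the start of a shorter annotated transcript. A peak of 2347 bp upstream of SLC44A5 (chr1:75614574-75616920), 4497 bp from its TSS, was called in dKO NPCs alone. At ELF2, an ETS family transcription factor, there was no WT peak, and the widths were 2324 bp in dKO NPCs (chr4:139176301-139178624) and 738 bp with BAF53B. SEMA5A, encoding a semaphorin that guides axons, had 2293 bp in dKO NPCs (chr5:9544570-9546862) and no peak in the other lists. Only 35 fragments lay at the SEMA5A summit, 2.77-fold over its local background, so the width there did not go with a high summit.

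With BAF53B, the widest peak lay at FAM193A (chr4:2535292-2537789) and measured 2498 bp, against 551 bp in WT NPCs and 617 bp in dKO NPCs. The summit held 49 fragments in this list, 50 in WT NPCs and 140 in dKO NPCs. TRIM41, an E3 ubiquitin ligase of the TRIM family, had 1265 bp in WT NPCs, 2269 bp in dKO NPCs and 2344 bp with BAF53B (chr5:181222085-181224428). At PAFAH1B2, a catalytic subunit of platelet-activating factor acetylhydrolase, the widths were 663 bp, 941 bp and 2234 bp (chr11:117143481-117145714). GRIA4, an AMPA glutamate receptor subunit, had no WT peak, 818 bp in dKO NPCs and 2141 bp with BAF53B (chr11:105609312-105611452). IWS1, a partner of the elongation factor SPT6, had 801 bp in WT NPCs, 1313 bp in dKO NPCs and 2064 bp with BAF53B (chr2:127525557-127527620).

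Broad peaks lay at gene starts more often than narrower peaks did in each list. The summit was within 3 kb of the TSS of an annotated gene for 92.0% of WT broad peaks (95% interval 88.7 to 94.4%), against 65.1% of the narrower WT peaks (64.0 to 66.2%). In dKO NPCs the shares were 83.7% (82.5 to 84.9%) and 44.8% (44.1 to 45.5%), and with BAF53B 86.1% (84.6 to 87.4%) and 49.3% (48.5 to 50.2%). In none of the lists did the intervals of broad and narrower peaks overlap. Counting the starts of all annotated transcripts, 95.1% of WT, 92.3% of dKO and 93.0% of BAF53B broad peaks lay within 3 kb of a start, against 73.9%, 55.8% and 59.6% of the narrower peaks. Of the broad peaks more than 3 kb from a gene's TSS, 11 of 28 in WT NPCs, 286 of 571 in dKO NPCs and 157 of 329 with BAF53B lay within 1 kb of the start of a shorter transcript, as at VGLL4. Summits of broad peaks lay in an annotated exon in 40.6% in WT NPCs, 37.7% in dKO NPCs and 36.8% with BAF53B, against 26.1%, 21.2% and 21.4% of the narrower peaks, and in an intron in 23.4%, 29.3% and 28.1%. A start on each strand within 500 bp of the summit was found at 21.3% of WT broad peaks with a start that near (16.7 to 26.7%), 16.5% of dKO broad peaks (15 to 18.2%) and 18.6% of BAF53B broad peaks (16.7 to 20.6%), against 14.1%, 8.65% and 10.1% of the narrower peaks.

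The DNA of most broad peaks was rich in CpG, as promoters commonly are. A GC content over 50% together with a ratio of observed to expected CG dinucleotides over 0.6 was found in 90.9% of WT broad peaks (87.4 to 93.4%), 85.8% of dKO broad peaks (84.6 to 86.9%) and 86.3% of BAF53B broad peaks (84.8 to 87.6%). Among the narrower peaks the shares were 63.2%, 39.5% and 44.7%. The median GC content of broad peaks was 61.3% in WT NPCs (60.6 to 62.1%), 64.9% in dKO NPCs (64.6 to 65.2%) and 62.3% with BAF53B (61.9 to 62.6%), and the dKO interval lay above both others. Among peaks within 3 kb of a TSS the medians of broad and narrower peaks were 61.7 and 63.5% in WT NPCs, 65.2 and 63.9% in dKO NPCs, and 62.6 and 63.5% with BAF53B. Among promoters, broad peaks thus had the higher median GC content in dKO NPCs and the lower one in the other lists. Base composition also enters amplification and mapping of the libraries, and its part in these widths was not tested.

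Short sequence patterns were counted within 100 bp of the summit on both strands. The AP-1 pattern, TGACTCA or TGAGTCA, which is the same site read on either strand, lay at 0.30% of WT, 1.23% of dKO and 1.32% of BAF53B broad peaks near a transcript start, against 2.68%, 2.76% and 4.27% of narrower peaks near a start and 2.62% of all protein-coding gene starts in windows of the same length. The WT share of the AP-1 pattern at broad peaks rested on 1 of 333 peaks. The SP/KLF pattern GGGGCGGGG lay at 21.0% of WT, 22.3% of dKO and 20.8% of BAF53B broad peaks near a start, against 15.8% of gene starts. Narrower peaks near a start held it in 19.9%, 15.9% and 18.5%, and the intervals of broad and narrower peaks overlapped for WT and BAF53B and not for dKO. CCAAT, the box bound by NFY, lay at 47.4% of WT, 31.6% of dKO and 35.8% of BAF53B broad peaks near a start. Narrower peaks there held it in 42.7%, 28.4% and 34.3%, and gene starts in 26.0%. The intervals of broad and narrower peaks again overlapped for WT and BAF53B and not for dKO.

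Most WT broad peaks were also broad in the other lists. Of the 350, 246 overlapped a broad dKO peak, which was 70.3% (65.3 to 74.8%), 102 overlapped a narrower dKO peak and 2 overlapped none. Among all dKO peaks that overlapped a WT peak, 28.5% were broad. In the BAF53B list, 227 WT broad peaks were broad, 119 had a narrower partner and 4 had none, against 25.5% broad among all BAF53B peaks that overlapped a WT peak. Widths at WT broad peaks were close to those in dKO NPCs, with medians of 1098 and 1144 bp and a median log2 ratio of dKO over WT width of −0.01 (−0.04 to 0.04), while the median summit pileup was 46 fragments in WT NPCs and 90 in dKO NPCs. The share of 70.3% fell to 40.1% when only peaks with a local background under 2 times the genome background of their list were kept. That filter also removed dKO partners, and a WT broad peak whose broad partner was removed counted as not broad. The fall thus does not show that partners were narrower. A high local background, of at least 2 times the genome background, was found at 26.7% of dKO, 8.86% of WT and 6.98% of BAF53B broad peaks. Among the narrower peaks the shares were 17.5%, 2.34% and 3.23%, so a high local background was most frequent in the dKO list in both width classes.

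Conversely, of the 3511 dKO broad peaks 246 (7.01%, 6.21 to 7.90%) had a broad WT partner, 1524 (43.4%) a narrower one and 1741 (49.6%) none. Among the 1770 that overlapped a WT peak the broad share was 13.9% (12.4 to 15.6%), where 5.56% of all WT peaks that overlapped a dKO peak were broad. A WT peak was found at 50.4% of broad dKO peaks and at 20.2% of narrower ones. Where a WT partner existed its median width was 648 bp against 1183 bp for the dKO members, a median log2 ratio of WT over dKO width of −0.92 (−0.96 to −0.88). Choosing members for their width in 1 list makes their partners narrower in part by construction. Among 6178 pairs of peaks that were each other's widest partner, with no choice on width, the dKO peak was the wider in 83.5%, and the median log2 ratio of dKO over WT was 0.49 (0.48 to 0.51). Among the 4306 of these pairs with neither peak broad it was 0.38 (0.36 to 0.40). Broad dKO peaks that had no WT peak were lower at the summit than those with a broad WT partner, with median pileups of 46 and 93 fragments, and 76.3% against 93.1% had their summit within 3 kb of a TSS.

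Between the dKO and BAF53B lists, 1250 broad peaks of each overlapped a broad peak of the other. They made up 35.6% of dKO broad peaks (34.0 to 37.2%) and 52.9% of BAF53B broad peaks (50.9 to 54.9%). Among the dKO broad peaks that overlapped a BAF53B peak the broad share was 45.6%, against 20.1% of all BAF53B peaks that overlapped a dKO peak. Among the BAF53B broad peaks that overlapped a dKO peak it was 55.1%, against 24.3% of all dKO peaks that overlapped a BAF53B peak. A further 1490 dKO broad peaks had a narrower BAF53B partner and 771 (22.0%) had none, so 78.0% had a partner, against 38.9% of the narrower dKO peaks. Of the BAF53B broad peaks, 1019 had a narrower dKO partner and 94 (3.98%) had none, so 96.0% had a partner, against 62.0% of the narrower BAF53B peaks. In the 11153 pairs of mutual widest partners the median log2 ratio of BAF53B over dKO width was −0.06 (−0.07 to −0.05), and the BAF53B peak was the wider in 44.2%. The 2 lists thus differed little in width where both had a peak, by less than the difference of either from WT, where the ratio of BAF53B over WT was 0.42 (0.41 to 0.44) over 6207 pairs. In the WT list, 227 BAF53B broad peaks were broad, 1359 were narrower and 777 had no peak. A WT peak was thus found at 67.1% of broad and 31.8% of narrower BAF53B peaks. Among the 1586 with a WT partner the broad share was 14.3% (12.7 to 16.1%), where 5.52% of all WT peaks that overlapped a BAF53B peak were broad.

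**Figure D2:**
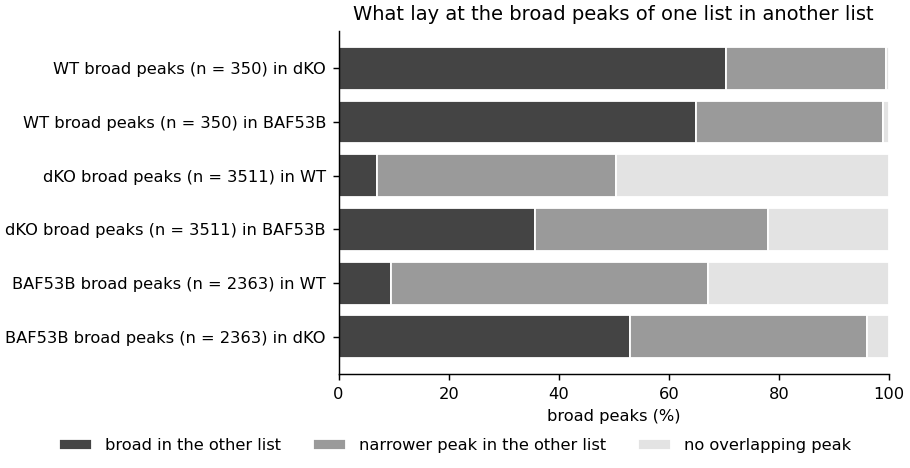
Bars show, for the broad peaks of each list, the percentage (x axis) that overlapped a broad peak, only narrower peaks or no peak in another list, with the number of broad peaks in each label. The dark part of a bar reached 70.3% for WT broad peaks in the dKO list and 7.01% for dKO broad peaks in the WT list.

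The summits of a broad peak and its partner lay a median of 40 to 44 bp apart. They were within 250 bp of each other in 85.0 to 89.2% in each pairing of lists. Partners were chosen to overlap, which itself keeps their summits near. Merging overlapping broad peaks gave 4687 regions. In 2201 of them the peak was broad in dKO NPCs alone, in 1072 with BAF53B alone and in 1064 in both dKO lists but not in WT. All 3 lists were broad in 186 regions, WT alone in 63, WT and dKO in 60 and WT and BAF53B in 41. Regions broad in both dKO lists had a narrower WT peak in 66.4%, of median width 655 bp, and regions broad in dKO alone in 37.3%, of median width 544 bp. Of the regions broad in dKO NPCs alone, 65.0% had a BAF53B peak, of median width 741 bp.

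The share of broad peaks was higher in classes of taller summits up to 79 fragments in each list, so the lists were set side by side at matched height. At 40 to 59 fragments 7.29% of WT (6.32 to 8.40%), 15.3% of dKO (14.5 to 16.1%) and 21.0% of BAF53B peaks (19.9 to 22.1%) were broad. In the class of 60 to 79 fragments the shares were 13.1% (10.4 to 16.5%), 27.3% (25.8 to 29.0%) and 29.2% (27.0 to 31.6%). In each class from 25 to 99 fragments the WT share was the lowest of the 3 and its interval did not overlap the others. The order was the same among peaks within 3 kb of a transcript start, with 13.7%, 29.4% and 30.4% in the class of 60 to 79. The genome background, a measure of depth, was 6.33 fragments per position in the WT list, 6.81 in the dKO list and 6.78 in the BAF53B list. Taking the 7880 peaks of highest −log10 q from each list, 4.44% of WT, 28.1% of dKO and 21.8% of BAF53B peaks were broad. Among the 20 with the most fragments in each list, 0 in WT NPCs, 3 in dKO NPCs and 0 with BAF53B were broad, and their median widths were 284, 446 and 295 bp. At 150 or more fragments 0 of 23 WT peaks (interval up to 14.3%), 0 of 25 BAF53B peaks (up to 13.3%) and 87 of 256 dKO peaks (34.0%) were broad.

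**Figure D3:**
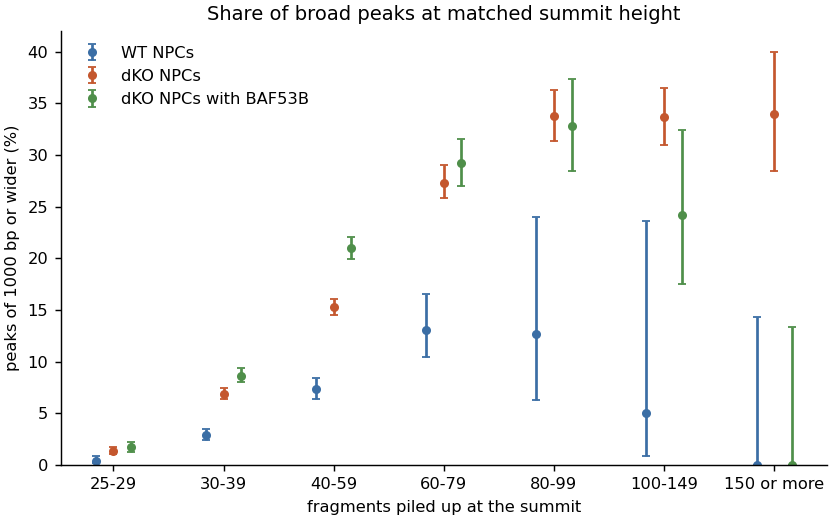
The percentage of peaks that were 1000 bp or wider (y axis) in classes of the number of fragments at the summit (x axis), with points for the 3 lists and bars for 95% Wilson intervals, which cover counting error only. From 30 to 79 fragments the WT points lie below those of both other lists, at 13.1% against 27.3 and 29.2% in the class of 60 to 79.

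Around the TSS, the median reach of broad peaks was longer into the gene than upstream of it in each list. Of the broad peaks with the summit within 3 kb of a protein-coding TSS, 89.5% in WT NPCs, 88.6% in dKO NPCs and 91.5% with BAF53B covered that TSS. Those that did reached a median of 494 bp upstream and 703 bp downstream in dKO NPCs, 530 and 672 bp with BAF53B, and 517 and 617 bp in WT NPCs. The downstream arm was the longer in 64.3% of dKO (62.3 to 66.2%), 61.1% of BAF53B (58.8 to 63.4%) and 55.9% of WT broad peaks (49.9 to 61.7%). Narrower peaks reached 298 bp upstream and 207 bp downstream in WT NPCs, 315 and 348 bp in dKO NPCs, and 322 and 297 bp with BAF53B, so the longer downstream reach was found in narrower dKO peaks too.

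The part of dKO broad peaks beyond the WT peak lay mainly downstream. At 617 dKO broad peaks with a narrower WT partner, a protein-coding TSS within 1 kb and no gene start on the opposite strand there, the dKO peak extended past the WT peak by a median of 123 bp upstream (105 to 138) and 447 bp downstream (420 to 475), and more downstream than upstream in 75.9% (72.3 to 79.1%). BAF53B broad peaks extended past narrower WT partners by 153 and 370 bp, with more downstream in 68.2% of 532. Against narrower BAF53B partners, dKO broad peaks extended by 78 and 319 bp, with more downstream in 66.9% of 647. In the reverse direction, 44 WT broad peaks extended past narrower dKO partners by 83 bp upstream and 114 bp downstream, with more downstream in 59.1% (44.4 to 72.3%). Each of these 4 sets gained more downstream at its median. Members were chosen by width, and the part of that choice in the size and direction of the gains was not tested.

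**Figure D4:**
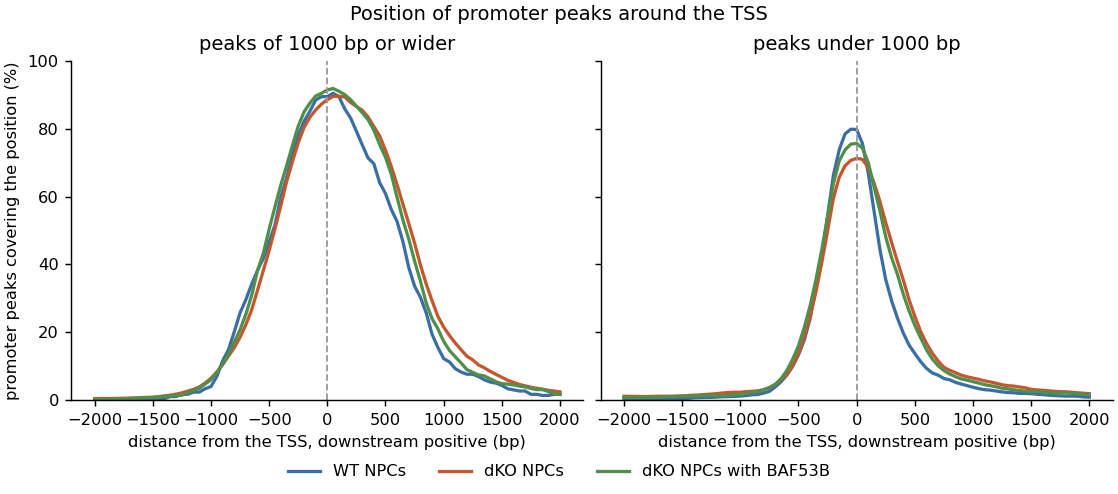
The percentage of promoter peaks that covered each position (y axis) by distance from the TSS of the nearest protein-coding gene (x axis, bp, downstream positive), for broad peaks in the left panel and narrower peaks in the right panel, with 1 line per list. The dKO and BAF53B lines of broad peaks lie further downstream than the WT line, with median downstream reaches of 703, 672 and 617 bp.

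Of the regions broad in all 3 lists, the 5 with the largest smallest width are given next, a choice that itself keeps their widths close. At RAB4B, a small GTPase of endosomes, the peak (chr19:40777464-40778984) had 1521 bp in WT NPCs, 1580 bp in dKO NPCs and 1567 bp with BAF53B, while its summit held 58, 137 and 80 fragments. USP5, a deubiquitinase, had 1553 bp (chr12:6851290-6852842), 1554 bp and 1500 bp at 65, 164 and 95 fragments. At AGBL5, an enzyme that trims glutamate chains from tubulin, the widths were 1423 bp (chr2:27050299-27051721), 1729 bp and 1551 bp. A region on chromosome 11 (chr11:94237482-94238919), 363 bp from a transcript start of the gene ENSG00000250519, measured 1438, 1427 and 1446 bp at 60, 59 and 60 fragments. Its summit was thus level in the 3 lists, whereas those of RAB4B and USP5 were tallest in dKO NPCs. The remaining region of these 5 lay on chromosome Y and is not described.

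WT broad peaks that were under 1000 bp in dKO NPCs fell into 2 patterns with BAF53B. EMSY, a BRCA2-binding protein, had 1513 bp in WT NPCs (chr11:76444491-76446003), 963 bp in dKO NPCs and 835 bp with BAF53B, and its summit was taller in the latter lists, at 53, 99 and 93 fragments. Peaks at the zinc finger gene ZNF566 (1456, 805 and 911 bp), the mitochondrial ribosomal protein gene MRPL17 (1373, 881 and 913 bp), the kinase gene CDK12 (1339, 790 and 656 bp) and the mRNA decapping factor gene PATL1 (1258, 664 and 591 bp) were likewise under 1000 bp with BAF53B. Peaks at TCP1, a subunit of the chaperonin that folds actin and tubulin, and CCNI, cyclin I, were broad again, with 1257, 551 and 1571 bp and with 1257, 835 and 1347 bp. A region 68891 bp from the TSS of CPO (chr2:207007988-207009567) measured 1580, 331 and 1290 bp at summits of 32, 32 and 31 fragments. Each of these 8 regions kept a called peak in all 3 lists.

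Of the 5 dKO broad peaks that were wider than their BAF53B partner by the most, 4 had no WT peak. They included those at VGLL4 and ELF2, given above. KCNN2, a small-conductance calcium-activated potassium channel, had 1893 bp in dKO NPCs (chr5:114360903-114362795, at an internal transcript start) and 308 bp with BAF53B, and TRIM62, another E3 ubiquitin ligase, had 2203 bp (chr1:33180652-33182854) and 623 bp. EEF1AKMT4, a methyltransferase of elongation factor 1 alpha, had 454 bp in WT NPCs, 1956 bp in dKO NPCs (chr3:184248598-184250553) and 517 bp with BAF53B, at 35, 103 and 77 fragments, so the BAF53B width was near that of WT while the summit lay between.

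The BAF53B broad peaks that exceeded their dKO partner by the most were at FAM193A, SOX5, GRIA4, PAFAH1B2 and EIF5B. SOX5, a SOX family factor of neural development, had no WT peak, 307 bp in dKO NPCs and 1861 bp with BAF53B (chr12:23949407-23951267), with the summit 29 bp from an internal transcript start. Its GC content was 46.0%, beside the median of 62.3% over BAF53B broad peaks. EIF5B, a translation initiation factor, had 1012 bp in WT NPCs, 755 bp in dKO NPCs and 1948 bp with BAF53B (chr2:99335919-99337866), and its summit lay 86 bp from a start of the neighbouring gene TXNDC9. At 4 of these 5 the summit held fewer fragments than in dKO NPCs, with 49 against 140 at FAM193A, 33 against 41 at SOX5, 34 against 59 at PAFAH1B2 and 72 against 80 at EIF5B. At GRIA4 it held more, 40 against 30.

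**Figure D5:**
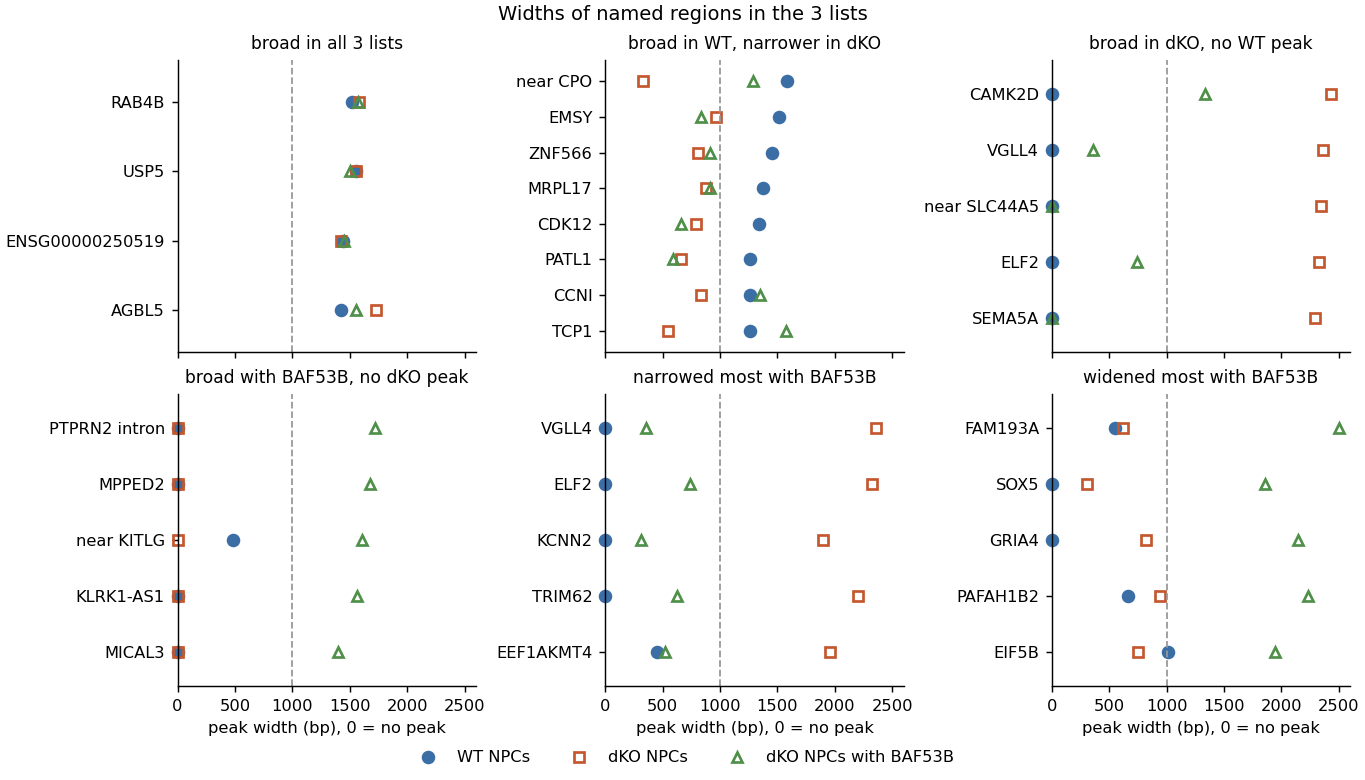
Peak widths (x axis, bp) of named regions in the WT (filled circles), dKO (open squares) and BAF53B (open triangles) lists, with a value of 0 where a list had no overlapping peak and a dashed line at 1000 bp. Widths at RAB4B and USP5 lie together at 1500 to 1580 bp, whereas VGLL4 stands at 2361 bp in dKO NPCs and 356 bp with BAF53B. The chromosome Y region is not drawn.

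Broad peaks with no dKO peak were rare with BAF53B and unlike the others. Of the 94, 38.3% had their summit within 3 kb of a TSS (29.1 to 48.4%) and 21.3% were CpG-rich, against 91.1% and 92.6% of the 1250 that were broad in both lists. They were also weaker calls, with medians of 34 summit fragments and a −log10 q of 7.01, against 49 and 14.3 for the 1250. The widest lay in an intron of PTPRN2 (chr7:157840933-157842648, 1716 bp), 506861 bp from the nearest protein-coding TSS, that of DNAJB6, with no WT peak. MPPED2, a metallophosphoesterase gene, had 1678 bp (chr11:30585259-30586936), and KLRK1-AS1, an antisense transcript of the NKG2D receptor gene, and MICAL3, an actin-oxidising enzyme, had 1560 and 1401 bp, all without a WT peak. The region 108808 bp from the TSS of KITLG, the ligand of the KIT receptor (chr12:88471554-88473163), measured 479 bp in WT NPCs and 1610 bp with BAF53B. It had a GC content of 37.3%.

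Away from any transcript start, 17 WT, 270 dKO and 165 BAF53B broad peaks remained. Their median GC content was 52.4%, 57.8% and 48.9%, below that of all broad peaks. In dKO NPCs 104 of the 270 lay in introns and 153 between genes, and 25.2% had a high local background, against 7.74% of the narrower distal dKO peaks. The AP-1 pattern lay at 12.1% of the BAF53B members (20 of 165, 7.99 to 18%) and 4.81% of the dKO members (13 of 270, 2.84 to 8.06%), next to 15.4% and 5.27% of the narrower distal peaks of the same lists. The widest in dKO NPCs, after that near SLC44A5, were a region of 2085 bp 56935 bp from the TSS of NEUROG3 (chr10:69515763-69517847) and a region of 2080 bp on the short arm of chromosome 22 (chr22:12692052-12694131), neither with a peak in another list. A region on chromosome 9 far from genes, nearest to SPATA31A6, was broad in all 3 lists at 1469, 1932 and 1056 bp (chr9:42387827-42389295 in WT NPCs). Regions on the short arm of chromosome 22 and near the centromere of chromosome 9 hold repeated sequence, to which reads map less surely.

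The 5 widest BAF53B peaks more than 3 kb from the TSS of any gene all had their summit within 443 bp of an internal transcript start. Beside SOX5 they were KDM4C, a histone demethylase, with no WT peak, 1707 bp in dKO NPCs and 1761 bp with BAF53B (chr9:6757083-6758843), ATP2C1, the calcium pump of the Golgi, with 329, 1183 and 1795 bp, MAGI1, a scaffold of cell junctions, with 910, 990 and 1757 bp, and the zinc finger gene ZFP30 with 866, 1632 and 1984 bp.

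Genes were then counted by their widest promoter peak. Of 5622 protein-coding genes with a promoter peak in WT NPCs, 403 had a broad one, which was 7.17%. In dKO NPCs 3318 of 11228 genes did, or 29.6%, and with BAF53B 2416 of 8945, or 27.0%. The median width of the widest promoter peak over all these genes was 573 bp, 820 bp and 786 bp. A broad promoter peak in all 3 lists was found at 225 genes, in both dKO lists but not WT at 1181, in dKO NPCs alone at 1844 and with BAF53B alone at 967. The gene lists below are read against these shares and medians, and a gene can share its peak with a neighbour. Widths given there are those of a gene's widest promoter peak in each list. Such peaks need not overlap between lists, and the WT and dKO peaks of VIM and of KMT2B do not.

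Heat shock genes, which encode chaperones and their regulators, had the highest share of the lists in WT NPCs, with 5 of the 14 members that had a promoter peak (35.7%, 16.3 to 61.2%), and a median width of 760 bp. In dKO NPCs 9 of 15 were broad and with BAF53B 10 of 15, with medians of 1064 and 1130 bp. HSPE1, the mitochondrial co-chaperonin, had 1257 bp in WT NPCs, 1003 bp in dKO NPCs and 1762 bp with BAF53B. HSPH1, a large chaperone that exchanges nucleotides on HSP70, was broad throughout at 1011, 1444 and 1242 bp, and the cytosolic chaperone HSP90AA1 measured 774, 1548 and 1243 bp. HSF1, the heat shock factor, had 265, 579 and 1427 bp. Among the genes of SR and hnRNP splicing factors, 5 of 27 were broad in WT NPCs, 15 of 31 in dKO NPCs and 8 of 30 with BAF53B, the last close to the share of all genes. HNRNPUL2 was broad in each list at 1547, 1695 and 1407 bp and SRSF7 at 1076, 1498 and 1009 bp, while HNRNPA2B1 had 837, 1514 and 1787 bp and SRSF1 843, 1133 and 1645 bp.

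Few neural genes had a WT promoter peak. Of the neural progenitor regulators 5 of 26 did, beside 5622 of all 20046 protein-coding genes. Of these 5 regulators 0 were broad, which at this number (interval up to 43.4%) cannot be set apart from all genes. In dKO NPCs 1 of 19 was broad (0.935 to 24.6%), and with BAF53B 4 of 13 (12.7 to 57.6%). The dKO interval lay below the share of all genes, 29.6%, and the BAF53B interval held it, 27.0%. The median width over the regulators with a dKO peak was 697 bp, against 820 bp over all genes. SOX11, a SOX factor of progenitors and young neurons, had 485 bp in WT NPCs, 1603 bp in dKO NPCs and 558 bp with BAF53B. The other 4 members with a broad peak were broad with BAF53B alone, so that choice itself made them wider there than in dKO NPCs. POU3F3 measured 445, 494 and 1356 bp, POU3F2, likewise a POU factor of neural development, 583, 697 and 1147 bp, VIM 483, 735 and 1162 bp, and PTPRZ1, a receptor phosphatase of radial glia, had no WT peak, 935 bp and 1109 bp. In the NOTCH pathway, through which neighbouring progenitors hold each other undifferentiated, 5 of 13 genes with a peak were broad in dKO NPCs, 0 of 4 in WT NPCs and 0 of 10 with BAF53B. The intervals, 17.7 to 64.5% in dKO NPCs and up to 27.8% with BAF53B, held the shares of all genes. The ligand JAG1 had 408, 1380 and 657 bp and the inhibitor NUMB 442, 1366 and 708 bp. The effectors HEYL and HES4 had peaks in dKO NPCs alone, of 1128 and 1009 bp, and HEY1 had 1311 bp in dKO NPCs, 804 bp with BAF53B and no WT peak. Of the neuronal genes with a peak, 0 of 2 were broad in WT NPCs, 1 of 7 in dKO NPCs and 0 of 6 with BAF53B. The intervals, up to 65.8%, 2.57 to 51.3% and up to 39.0%, held the shares of all genes. The dKO member was MAP2, the dendritic microtubule protein, with 679, 1196 and 970 bp. No HOX gene and no gene of the other-lineage list was broad in any list, where 3 and 4 had a dKO promoter peak.

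Histone and ribosomal protein genes are both highly transcribed groups. Among replication-dependent histone genes 0 of 23 were broad in WT NPCs, 17 of 46 in dKO NPCs and 5 of 45 with BAF53B. Their median widths were 443, 916 and 633 bp. The interval held the share of all genes in WT NPCs (up to 14.3%) and dKO NPCs (24.5 to 51.4%). With BAF53B it lay below that share (4.84 to 23.5%). The histone genes lie mostly in clusters of related copies. Reads may be assigned to the wrong copy, which was not tested, and neighbours such as H2AC8 and H2BC8 share a peak of 893, 1122 and 1147 bp. Among cytosolic ribosomal protein genes 1 of 47, 15 of 74 and 10 of 69 were broad. The interval lay below the share of all genes with BAF53B (8.07 to 24.7%) and held it in WT NPCs (0.377 to 11.1%) and dKO NPCs (12.7 to 30.8%). RPLP2 was the WT member, with 1497, 1075 and 990 bp. RPL7 had no WT peak, 1787 bp and 1286 bp, RPL9 835, 1207 and 1736 bp and RPL30 475, 1069 and 1345 bp. ZNF genes, the largest list, had 13 of 231, 98 of 405 and 71 of 346 broad, with intervals that lay below the shares of all genes in dKO NPCs (20.3 to 28.6%) and with BAF53B (16.6 to 25.1%) and held it in WT NPCs (3.32 to 9.39%). ZNF592 measured 1981 bp in dKO NPCs alone, ZNF664 775, 1926 and 949 bp, and ZNF524 759, 1848 and 1836 bp.

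Chromatin regulators included the genes edited or added in the study. Among BAF subunit genes 2 of 15 were broad in WT NPCs, 9 of 23 in dKO NPCs and 6 of 21 with BAF53B. The endogenous promoter of ACTL6B, the gene of BAF53B, had 465 bp in WT NPCs, 1424 bp in dKO NPCs (chr7:100655130-100656553) and 224 bp with BAF53B, at 37, 34 and 30 fragments. SS18 measured 643, 1526 and 1416 bp, BCL7B 561, 1503 and 1072 bp, and the core subunit SMARCC1 698, 1435 and 566 bp. Of the polycomb, KDM6 and COMPASS genes 2 of 17, 13 of 32 and 8 of 30 were broad. Their intervals, 3.29 to 34.3%, 25.5 to 57.7% and 14.2 to 44.4%, held the shares of all genes too. The H3K27 methyltransferase EZH2 had 363, 1460 and 582 bp, the H3K4 methyltransferases KMT2A 625, 1582 and 1177 bp and KMT2B 514, 778 and 1424 bp, and RBBP4, a histone-binding subunit, was broad throughout at 1165, 1432 and 1300 bp.

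The remaining lists are short, and their intervals in dKO NPCs and with BAF53B are wide. Of the immediate early genes 0 of 9, 4 of 18 and 3 of 15 were broad, led by EGR1 with 742, 1662 and 1647 bp and JUN with 707, 1321 and 840 bp. Of the cell cycle genes 0 of 17, 8 of 31 and 6 of 26 were broad, CCNA2, cyclin A, with 403, 1367 and 1478 bp, PCNA, the replication clamp, with 624, 1344 and 692 bp, and RB1, the retinoblastoma protein, with no WT peak, 669 and 1372 bp. Collagen genes gave 0 of 1, 2 of 14 and 1 of 5, with COL1A1 at 1104 bp in dKO NPCs and 285 bp with BAF53B, COL2A1 at 1035 bp in dKO NPCs alone and COL11A1 at 922 and 1283 bp. Pluripotency genes had no WT promoter peak, and 2 of 6 were broad in dKO NPCs, LIN28A with 1689 bp (409 bp with BAF53B) and the DNA methyltransferase gene DNMT3B with 1151 bp and no BAF53B peak. Among host genes of small nucleolar RNAs 0 of 13, 4 of 21 and 4 of 19 were broad, and SNHG18 shared the dKO peak of 2293 bp with SEMA5A.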

How the data were processed

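ATAC-seq of 6 samples was examined as 3 peak lists, in each of which the authors had pooled the 2 replicates of a group. Per the study's methods and the submitters' processing notes, the authors used cutadapt 1.13, Bowtie2 2.2.5 against hg38, SAMtools 1.3.1, Picard 1.90 and MACS2. The peak calling options and any shift of Tn5 insertion sites are not given in the sources used here. Each deposited list gives a fold, which is a ratio of summit pileup to local background with a pseudocount of 1, a −log10 p-value, a −log10 q-value of at least 5 and a score that is 10 times the −log10 p.

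Width was the end minus the start. Pileup and background were solved from the fold and −log10 p for 100.0% of peaks, within 0.001. The partner was the widest peak overlapping by at least 1 bp. Genes and transcripts came from GENCODE version 44, and promoters reached 3 kb on each side of a TSS. Shares have Wilson 95% intervals and medians have binomial order-statistic intervals. Named regions were the 5 widest per list, the 5 of largest smallest width among regions broad in all lists, up to 8 or 5 of each direction of gain and loss, the 5 widest away from gene starts per list and the 4 widest members of each gene list. PTPRZ1, HES4 and TXNDC9 were named after their values were seen. One region that this rule names is not reported here. Further listed genes with a broad peak appear in the counts only. Members and gene lists were chosen with earlier results of these data known. Computations ran in Python 3.11.15 with pandas 2.3.3 and numpy 2.4.6, with pysam 0.24.0 for sequences, scipy 1.17.1 for intervals and matplotlib 3.10.9 for plots. The methods were tested on simulated data, and 100.0% of 3000 simulated pileups and of 2000 planted pairs of intervals were recovered. Alternatives were other width minimums, the widest 10% of each list, stricter or equal-length lists, autosomes only, other partners, promoter windows and gene sets, a low local background and other height classes. The starts of all transcripts were added after the data had been seen.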

Additional observations from a re-analysis of the deposited data

How the results depend on the processing

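No paired analysis was possible because each group had 1 pooled list and no result came from a test. Of 168 values under 14 alternatives and 1 that was chosen after seeing the data (the starts of all transcripts), 83 stayed within the 95% interval of the reported value, or within 1.5 times a reported count, and 85 did not. No width ratio changed sign, and the dKO and BAF53B values lay above WT for counts of broad peaks, counts of genes and the matched-height share under each alternative that gave them. Values below are for WT, dKO and BAF53B in that order, overlaps for WT in dKO, dKO in WT, BAF53B in dKO and dKO in BAF53B, and log2 ratios for WT and BAF53B over dKO at dKO broad peaks. In each case the width minimum, list or partner rule itself changed which peaks entered, and no further cause was tested.

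At a width minimum of 800 bp there were 1013, 6722 and 4639 peaks, 88.5, 79.9 and 81.4% at a TSS, 1125, 5920 and 4336 genes, 27.6, 49.4 and 52.5% broad at 60 to 79 fragments, a dKO GC content of 64.3%, overlaps of 81.9, 12.3, 66.5 and 45.9% and ratios of −0.75 and −0.22. At 1500 bp there were 13, 392 and 220 peaks, 76.9, 86.5 and 88.6% at a TSS, 14, 388 and 244 genes, 0.862, 3.35 and 3.47% broad at 60 to 79 fragments, a GC content of 59.6% in WT and 65.4% in dKO, overlaps of 38.5, 1.28, 25 and 14.0% and ratios of −1.14 and −0.68. For the widest 10% of each list, WT had 890 genes, dKO and BAF53B had 85.7 and 87.4% at a TSS, the dKO GC content was 65.2%, overlaps were 46.3, 14.4, 47.2 and 31.5% and ratios −0.97 and −0.37.

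With a −log10 q of at least 10, WT had 226 broad peaks, dKO and BAF53B had 86.4 and 88.6% at a TSS, overlaps were 6.04% for dKO in WT, 55.2% for BAF53B in dKO and 31.7% for dKO in BAF53B, and ratios −0.77 and −0.26. At equal list length dKO had 2218 broad peaks, 88.4% at a TSS and a GC content of 64.5%, BAF53B had 88.5% at a TSS, overlaps of dKO were 10.6% in WT and 39.7% in BAF53B, and the ratio of BAF53B was −0.25. A local background under 2 times the genome background gave a dKO GC content of 64.5%, overlaps of 40.1, 4.97, 39.9 and 34.0% and a WT ratio of −0.97. In this and the other filtered lists, a member whose partner was removed counted as without a broad partner. Reciprocal overlap of 50% gave ratios of −0.53 and −0.19. Summed widths of all overlapping peaks gave ratios of −0.87 and −0.29 and overlaps of 55.1% for BAF53B in dKO and 37.5% for dKO in BAF53B. A promoter window of 1 kb left 88.3, 79 and 82.3% at a TSS, and the starts of all transcripts gave 95.1, 92.3 and 93.0%. The class of 40 to 59 fragments gave 7.29, 15.3 and 21.0% broad.

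Depth limits the width of low peaks, since flanks that fall under the threshold are not called, and the smallest summit of a broad peak held 25 fragments. Pooled lists give no spread between replicates, so differences between groups have no replicate check, and a wider peak cannot be told apart from adjoining peaks joined by the caller.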
